A study of Drosophila melanogaster with 6 samples.

Results

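The insulin-like peptides of the fly and their signalling chain were followed in adult heads of Drosophila melanogaster: Ilp2, Ilp3, Ilp5, Ilp6, ImpL2, InR, chico and foxo. The 8 genes were chosen by name, as brain and fat body peptides, a binding protein and pathway genes, and 7 of them were found by symbol among the 15886 rows of the expression table. The exception was InR, the insulin receptor (3R, 21570248 to 21619321 in the BDGP6 build), whose reference identifier matched no row, so it is not analysed here. All flies received the drug RU486 in their food and carried TubGS, in which a tubulin promoter drives the GeneSwitch activator so that RU486 turns it on in most tissues. Flies of genotype TubGS>RNAi-GLAD (RNAi-GLAD) expressed an RNA interference construct labelled RNAi-GLAD, and TubGS>RNAi-GFP flies (RNAi-Ctrl) one against GFP, which flies lack. Samples were taken on day 7 of induction, with 3 libraries per group and 100 brains per sample as labelled. The protocol names brains and the tissue label heads, and both photoreceptor genes (summed level 44005 to 45560 FPKM over 10 markers) and fat body genes (4586 to 5684 FPKM over 10) were abundant, so the samples held more than brain. The labels do not say that replicates came from separate crosses. The p-values thus cover the spread among these libraries alone, and that spread may be technical. The gene that GLAD targets is not named in the labels and was not checked.

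In flies, a small group of neurosecretory cells in the brain makes Ilp2, Ilp3 and Ilp5 and releases them into the blood, while the fat body and some glia make Ilp6. The peptides bind a single insulin receptor, InR, which acts through the substrate protein chico, PI3-kinase and Akt to hold the transcription factor foxo out of the nucleus and to activate TOR. ImpL2 is a secreted protein that binds the peptides and counteracts them. The pathway sets growth, fat storage and lifespan, and the brain peptides respond to signals sent by the fat body and gut.

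The libraries numbered 3 stood apart. A comparison of the 4 libraries numbered 1 and 2 called 527 of 9661 genes, and 522 of these (99.05%) had the opposite sign between RNAi-GLAD 3 and RNAi-Ctrl 3. Over all tested genes the sign was opposite for 75.1%. Results are therefore given for all 6 libraries and for the 4 numbered 1 and 2, and the directions in the latter go against the labels of the libraries numbered 3 wherever their sign was opposite. Where 3 values are given for a group, they are those of its libraries 1, 2 and 3 in that order. The controls are RNAi-Ctrl, and values given as with GLAD are those of the RNAi-GLAD libraries. The fragment totals implied by the values were 22.1 to 29.5 M per library. Midgut, yolk and testis markers differed between single libraries: 10 midgut genes summed to 113 to 643 FPKM, and Yp1, a yolk protein gene, was at 296 FPKM in RNAi-Ctrl 1 and at 0.735 to 3.28 FPKM in the other 5. The 10 testis and accessory gland markers summed to 7.57, 34.6 and 40.0 FPKM in the controls and 60.2, 1.62 and 7.40 FPKM with GLAD. In whole tissue, fewer cells of a type and less RNA per cell cannot be told apart.

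As labelled, none of the 7 genes differed between the groups beyond the spread between libraries. Limma called 0 of the 7 over all 6 libraries, against 0% of all 9631 genes tested (112 genes, none of the 7, had an unadjusted p under 0.05). For 0 of the 7 were the groups free of overlap, against 4% of all genes. In the 4 libraries numbered 1 and 2 only Ilp2 was called, as lower, where 5.45% of all genes were called, 1.36% as lower and 4.1% as higher. The groups did not overlap for Ilp2 and foxo, 2 of 7, against 56.5% of all genes, and 5 of 7 had the opposite sign in the libraries numbered 3. The median difference over the 7 was -0.11 with 6 libraries and -0.16 with 4, on the log2(FPKM + 1) scale, and that of all genes was 0.01 and 0.02.

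**Figure D1:**
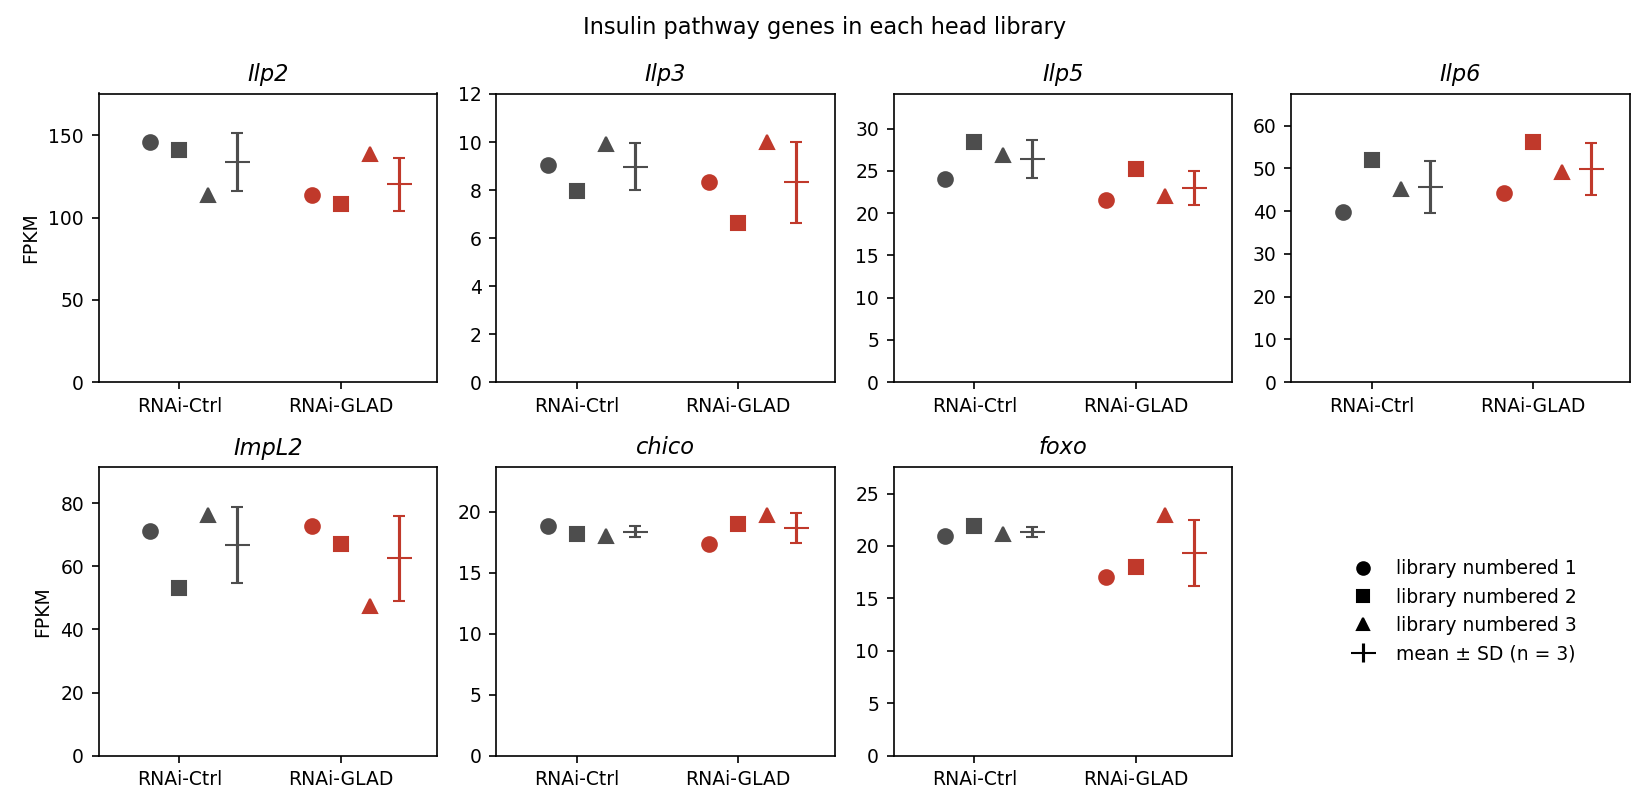
FPKM (fragments per kilobase of gene, scaled to the library total; linear axis from 0) of the 7 genes found, by library, with the mean and SD of each group (n = 3). In Ilp2 the library numbered 3 lies apart from the other 2 in both groups, at 113 FPKM in RNAi-Ctrl and 139 in RNAi-GLAD, while in Ilp6 both libraries numbered 2 are the highest of their group.

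Per length, Ilp2 was the most abundant of the 7, at 127 ± 16.8 FPKM (SD over 6 libraries), and ranked 705 of 9631 genes by mean level. ImpL2 followed at 64.7 ± 11.6 FPKM, Ilp6 at 47.8 ± 5.85, Ilp5 at 24.7 ± 2.70, foxo at 20.3 ± 2.30, chico at 18.5 ± 0.847 and Ilp3 at 8.65 ± 1.29 FPKM. The order from Ilp6 to Ilp5, from chico to Ilp3 and from Ilp2 to ImpL2 held in every library and their ranges were apart. ImpL2 and Ilp6 overlapped in range, and Ilp6 was the higher in 1 of 6 libraries. Levels of Ilp5 and foxo overlapped likewise, as did those of foxo and chico, with the second gene higher in 1 and 2 of 6 libraries.

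Among the brain peptides, Ilp2 fell in RNAi-GLAD 1 and 2. The gene (3L, 9799698 to 9800440) was at 146, 141 and 113 FPKM in the controls and 114, 109 and 139 FPKM with GLAD. RNAi-Ctrl 1 and 2 and RNAi-GLAD 3 were thus high, the other 3 libraries low, and the labelled groups overlapped. Over 6 libraries the means were 134 ± 17.6 and 120.3 ± 16.1 FPKM (SD, n = 3 each), a log2 difference of -0.15 ± 0.14 (SE; limma, adjusted p = 0.999). In libraries 1 and 2 the mean went from 144 ± 3.51 to 111 ± 3.69 FPKM (SD, n = 2 each), 77.3% of the control, a log2 difference of -0.37 ± 0.05 (limma, adjusted p = 0.0410). Between the libraries numbered 3 the difference was 0.29, in the other direction. The call was lost without any 1 of the 4 libraries: the adjusted p was 0.250 without RNAi-Ctrl 1, 0.212 without RNAi-Ctrl 2, 0.0693 without RNAi-GLAD 1 and 0.116 without RNAi-GLAD 2.

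The Ilp2 values came out as whole reads, 2436, 2261 and 2245 in RNAi-Ctrl and 1780, 1639 and 2049 in RNAi-GLAD, which carry a counting error of 2.03% to 2.47%, beside a coefficient of variation of 13.2% and 13.35% within the labelled groups. Between libraries 1 and 2 alone it was 2.44% in RNAi-Ctrl and 3.32% in RNAi-GLAD, so the larger values rested on the libraries numbered 3. Counting errors leave out variation from amplification and between samples.

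Ilp3 and Ilp5, made in the same cells, did not pass in either comparison. Ilp3 (3L, 9801298 to 9802120) was at 9.05, 7.97 and 9.92 FPKM in the controls and at 8.32, 6.62 and 10.02 FPKM with GLAD. In both groups the library numbered 3 was the highest and that numbered 2 the lowest, and the groups overlapped. Its log2 difference was -0.11 ± 0.15 over 6 libraries and -0.17 ± 0.13 over 4 (SE; limma, adjusted p = 0.999 and 0.481). The gene rested on 112 to 220 reads, a counting error of 6.74% to 9.45%, beside variation of 10.9% in RNAi-Ctrl and 20.4% in RNAi-GLAD.

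Ilp5 (3L, 9823349 to 9823897) was at 24.0, 28.5 and 26.9 FPKM in the controls and at 21.6, 25.2 and 22.0 FPKM with GLAD. A single RNAi-GLAD library, numbered 2, lay within the control range. Its log2 difference was -0.20 ± 0.09 over 6 libraries (95% interval -0.42 to 0.03) and -0.16 ± 0.12 over 4 (limma, adjusted p = 0.999 and 0.494). Unlike Ilp2, its sign in the libraries numbered 3 (-0.28) was the same as in the other 4. It had the smallest unadjusted p of the 7 over 6 libraries, 0.0748 by limma. With 232 to 379 reads, a counting error of 5.14% to 6.57% stood beside variation of 8.59% and 8.74% within groups.

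The proportions of the 3 brain peptides varied between libraries. Ilp2 made up 81.6%, 79.5% and 75.5% of their summed FPKM in the controls and 79.2%, 77.3% and 81.2% with GLAD. The ratio of Ilp2 to Ilp5 was 6.10, 4.96 and 4.23 in the controls and 5.27, 4.30 and 6.30 with GLAD, so the groups overlapped with and without the libraries numbered 3. Dsk, a neuropeptide gene also expressed in the insulin-producing cells, was at 181, 192 and 183 FPKM in the controls and 158, 164 and 201 FPKM with GLAD (log2 difference -0.21 ± 0.05 over 4 libraries and -0.09 ± 0.10 over 6; limma, adjusted p = 0.117 and 0.999). The 6 neurosecretory markers found, Dsk included, summed to 622, 639 and 606 FPKM in the controls and 601, 594 and 632 FPKM with GLAD. For 9 neuronal markers the sums were 1651, 1633 and 1461 FPKM in the controls and 1487, 1541 and 1492 FPKM with GLAD. Both sums were lower in RNAi-GLAD 1 and 2 than in RNAi-Ctrl 1 and 2, as Ilp2 was. Over 4 libraries 4 of the 5 neurosecretory markers tested had a negative difference and 1 a positive one. All 9 neuronal markers had a negative one (median -0.11), beside 4372 of all 9661 genes. No neurosecretory or neuronal marker was called. The shift was not particular to these 2 lists. Of the other markers tested, 8 of 9 glial, 7 of 7 muscle and 7 of 10 photoreceptor genes also had a negative difference over 4 libraries. Of 7 haemocyte markers, 6 had a positive one and 1 a negative one. Cadps had -0.16 ± 0.04 and amon -0.05 ± 0.06 over 4 libraries (limma, adjusted p = 0.134 and 0.645). Dh44, a diuretic hormone gene, was at 39.6, 40.3 and 46.1 FPKM in the controls and 46.3, 46.0 and 40.8 FPKM with GLAD, a positive difference over 4 libraries (0.20 ± 0.04; limma, adjusted p = 0.0823). Pal2, an enzyme of peptide amidation, had -0.02 ± 0.05 (limma, adjusted p = 0.839), and dimm, a transcription factor of neurosecretory cells, was below the filter at 0.366 to 0.698 FPKM. None of the defining markers nSyb, elav, Syt1 and brp was at 0 in a library, and the part of these shifts in the Ilp2 result was not tested.

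**Figure D2:**
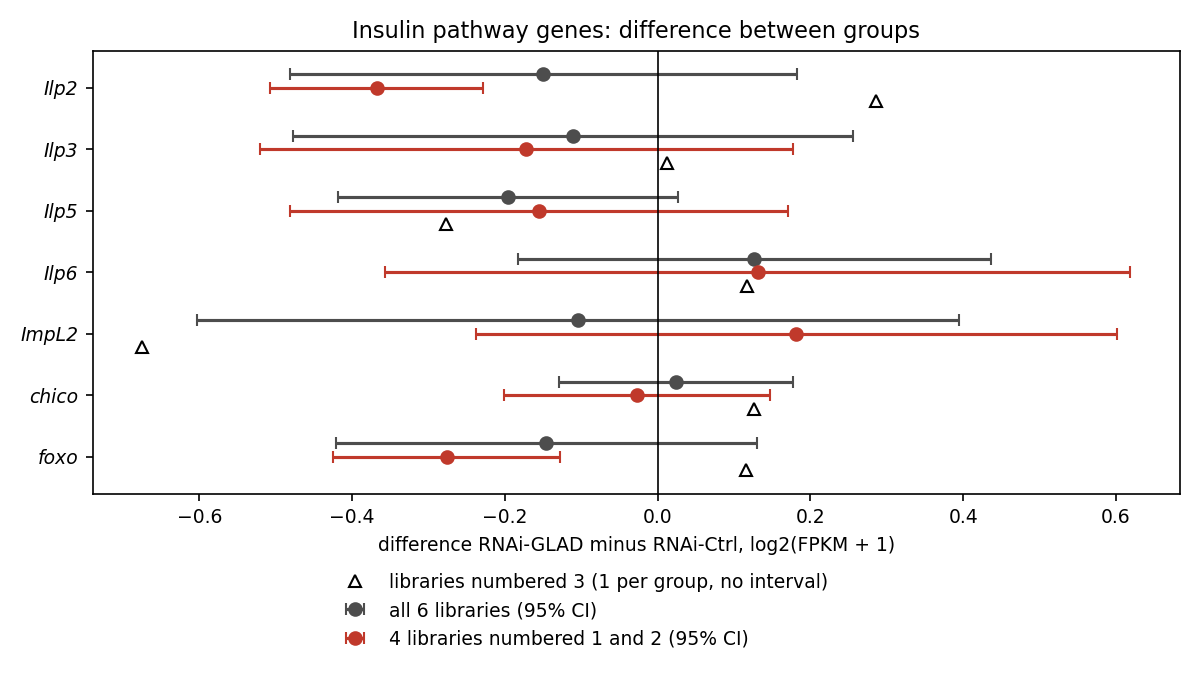
Difference between RNAi-GLAD and RNAi-Ctrl for the 7 genes on the log2(FPKM + 1) scale, with 95% confidence intervals from limma for all 6 libraries and for the 4 numbered 1 and 2, and the single difference between the libraries numbered 3. The 4-library intervals of Ilp2 and foxo lie below 0 while their triangles lie above it, and Ilp5 and Ilp6 keep their side in all 3 values.

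Ilp6, the peptide of fat body and glia (X, 2331493 to 2334658), did not pass in either comparison. It was at 39.9, 51.9 and 45.1 FPKM in the controls and at 44.3, 56.2 and 49.0 FPKM with GLAD. Libraries with the same number ranked alike in both groups, the groups overlapped, and the RNAi-GLAD value was the higher by 0.15, 0.11 and 0.12 on the log2(FPKM + 1) scale within numbers 1, 2 and 3. The labels do not say that a number marks a shared batch. As groups the difference was 0.13 ± 0.13 over 6 libraries (95% interval -0.18 to 0.44) and 0.13 ± 0.18 over 4 (limma, adjusted p = 0.999 and 0.713). The fat body markers summed to 5197, 4908 and 5684 FPKM in the controls and 4586, 5409 and 4926 FPKM with GLAD, with Fbp1 near 0 throughout (0.0352 to 0.0856 FPKM). Tsf1 and Desat1 made up most of that sum, and single markers differed: of 9 tested, 3 had a positive and 6 a negative difference in the 4 libraries, and 1 was called, as higher. It was Apoltp, a lipid transfer protein gene, at 21.5, 21.5 and 40.2 FPKM in the controls and 35.9, 40.8 and 20.5 FPKM with GLAD (0.80 ± 0.07; limma, adjusted p = 0.0213). Their part in the Ilp6 values was not tested.

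ImpL2, the binding protein (3L, 4224006 to 4236147), varied most of the 7, with a 1.61-fold range from the lowest to the highest library. Its level was 71.2, 53.3 and 76.3 FPKM in the controls and 72.9, 67.2 and 47.4 FPKM with GLAD. RNAi-Ctrl 2 and RNAi-GLAD 3 were low and the other 4 libraries lay together. Its sign turned with the libraries used: -0.10 ± 0.20 over 6 libraries and 0.18 ± 0.15 over 4 (limma, adjusted p = 0.999 and 0.538), with -0.67 between the libraries numbered 3. Of its 2667 exonic bases, 1651 also belong to exons of CG46460 on the same strand, and the sources used here do not say how shared reads were counted.

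Inside the cell, neither chico nor foxo passed in either comparison. The level of chico (2L, 10242512 to 10247078), the insulin receptor substrate, was 18.9, 18.2 and 18.0 FPKM in the controls and 17.4, 19.03 and 19.7 FPKM with GLAD. The libraries intermixed, and the log2 difference was 0.024 ± 0.063 over 6 libraries and -0.027 ± 0.064 over 4 (limma, adjusted p = 0.999 and 0.843). Its 95% interval over 6 libraries, -0.13 to 0.18, was the narrowest of the 7. An antisense RNA, asRNA:CR44995, covers 380 bases of its exons, and reads of both strands cannot be told apart without the strand setting.

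The transcription factor gene foxo (3R, 14056945 to 14087978) was at 21.0, 21.9 and 21.1 FPKM in the controls and at 17.0, 18.0 and 22.9 FPKM with GLAD. RNAi-GLAD 1 and 2 were below all 4 others, and RNAi-GLAD 3 was the highest library. Its log2 difference was -0.15 ± 0.11 over 6 libraries (limma, adjusted p = 0.999). Over 4 libraries it was -0.28 ± 0.05, with means of 21.4 ± 0.644 and 17.5 ± 0.681 FPKM (SD, n = 2 each), and missed the threshold (limma, adjusted p = 0.0722; 0.0498 among genes with a mean of at least 5 FPKM). RNAi-Ctrl 3, unlike in Ilp2, lay with the other control libraries.

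The other genes of the secreted insulin system held 0 calls among 7 tested of 11, in either comparison, with a median of -0.024 over 6 libraries and -0.051 over 4. Ilp1 and Ilp2 to Ilp5 lie together within 25478 bases of 3L, with 647 bases between Ilp1 and Ilp2 and 857 between Ilp2 and Ilp3. Ilp1 was at 5.97, 4.32 and 2.26 FPKM in the controls and at 2.85, 2.39 and 3.41 FPKM with GLAD. RNAi-Ctrl 1 and 2 were the 2 highest libraries, RNAi-GLAD 3 came next and RNAi-Ctrl 3 was the lowest. The log2 difference over 4 libraries was -0.75 ± 0.17 (limma, adjusted p = 0.0958), and that over 6 libraries was -0.36 ± 0.29. Between the libraries numbered 3 the single difference was 0.44. Of its 631 exonic bases, 258 also lie in exons of CG32052 on the same strand, whose introns hold Ilp2 and Ilp3 as well, so its value is uncertain. Ilp5 lies within CG43897 and Ilp6 overlaps Raf, both on the opposite strand, with 0 exonic bases shared. Sdr, a secreted decoy of the receptor, was at 7.02 to 9.10 FPKM (-0.18 ± 0.09 over 4 libraries and -0.04 ± 0.11 over 6; limma, adjusted p = 0.314 and 0.999).

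Other peptides were close to absent in heads. Ilp4 rested on 0 to 5 reads per library, Ilp7 on 4 to 12 and Ilp8, a relaxin-like peptide of growing tissues, on 3 to 9. Akh, the hormone that opposes insulin and is made outside the brain, had 2 to 18 reads, while AkhR, its receptor, was at 31.2 to 40.9 FPKM. A difference between groups was not detectable at this depth for these 4 peptides.

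Below the receptor, 0 of the 19 genes found of the PI3K, Akt and TOR chain were called in either comparison, and their median was -0.0049 over 6 libraries and -0.0062 over 4. The smallest p over 4 libraries belonged to rictor, a subunit of the second TOR complex, at 9.82, 9.42 and 7.48 FPKM in the controls and 8.20, 7.73 and 9.29 FPKM with GLAD (log2 difference -0.24 ± 0.06 over 4 libraries and -0.07 ± 0.12 over 6; limma, adjusted p = 0.108 and 0.999). It was followed by sgg, the GSK-3 kinase (-0.21 ± 0.05 over 4 and -0.07 ± 0.10 over 6; limma, adjusted p = 0.109 and 0.999). For these and foxo the libraries numbered 3 had the opposite sign, 0.28 for rictor and 0.19 for sgg. It was opposite for 12 of the 19 genes, beside 75.1% of all tested genes. The 3 other listed genes of the chain, S6k, Lobe and Ptp61F, matched no row by symbol.

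Of the FOXO and nutrient response genes, 1 of 14 was called as higher and 0 as lower in the 4 libraries, where 4.1% and 1.36% of all genes were. Called or not, 11 of the 14 had a positive difference and 3 a negative one (median 0.10), beside 5289 positive of all 9661 genes. Over 6 libraries 0 of 14 were called (median 0.048). Lsd-1, a perilipin on fat droplets, was at 272, 306 and 253 FPKM in the controls and 407, 405 and 208 FPKM with GLAD. Its RNAi-GLAD 1 and 2 values were above all others, and RNAi-GLAD 3 was the lowest (0.49 ± 0.07 over 4 libraries and 0.23 ± 0.27 over 6; limma, adjusted p = 0.0469 and 0.999). No other gene of the list passed. The largest difference among them was in Lip4, a lipase gene, at 34.5, 45.8 and 62.4 FPKM in the controls and 60.2, 68.3 and 43.7 FPKM with GLAD. RNAi-GLAD 1 and 2 lay above RNAi-Ctrl 1 and 2, and 1 of them also above RNAi-Ctrl 3 (0.68 ± 0.16 over 4 libraries and 0.28 ± 0.25 over 6; limma, adjusted p = 0.0986 and 0.999). The transcription factor gene sug had 0.33 ± 0.12 over 4 libraries and 0.09 ± 0.16 over 6 (limma, adjusted p = 0.200 and 0.999). The FOXO target Thor, which encodes the translation inhibitor 4E-BP, was at 85.5, 125 and 116 FPKM in the controls and 105, 161 and 112 FPKM with GLAD, so the groups overlapped (0.33 ± 0.29 over 4 libraries and 0.20 ± 0.21 over 6; limma, adjusted p = 0.553 and 0.999). The brain insulin target tobi, an alpha-glucosidase gene, ranged from 68.0 to 274 FPKM without order by group (-0.44 ± 0.56 over 4 libraries and -0.28 ± 0.56 over 6; limma, adjusted p = 0.697 and 0.999). These 4 were named after their values were seen.

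**Figure D3:**
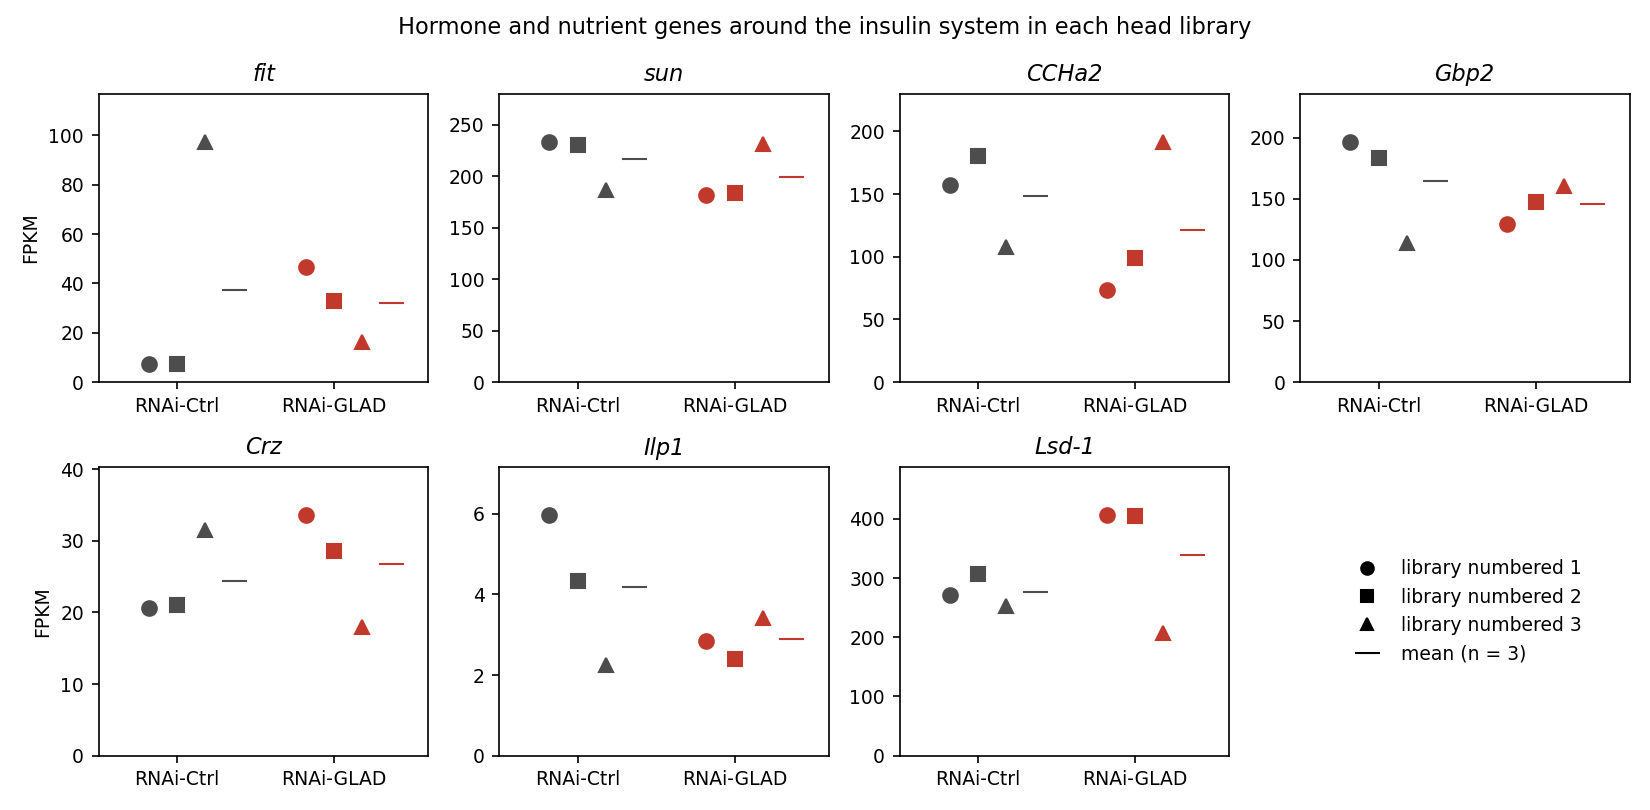
FPKM of 7 hormone and nutrient genes by library (linear axis from 0) with the group mean (n = 3). In fit, Crz and Lsd-1 the libraries RNAi-GLAD 1 and 2 lie above RNAi-Ctrl 1 and 2, and in sun, CCHa2, Gbp2 and Ilp1 below them. In all 7 the order of the libraries numbered 3 is reversed. The 7 were picked from their values in the 4 libraries, and 99.05% of all genes called there were reversed likewise.

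Signals that act on the insulin-producing cells gave 1 higher and 1 lower call among 24 tested of 25 in the 4 libraries, and 0 over 6. The higher one was fit, a female-biased fat body peptide that promotes insulin release: 7.50, 7.49 and 97.4 FPKM in the controls and 46.9, 33.0 and 16.3 FPKM with GLAD. RNAi-Ctrl 3 was the highest library and RNAi-GLAD 3 stood between the groups (2.25 ± 0.18 over 4 libraries and 0.66 ± 1.02 over 6; limma, adjusted p = 0.0186 and 0.999). As fit and Lsd-1 were, the fat body markers Apoltp and Lsp2 were higher in RNAi-GLAD 1 and 2 than in RNAi-Ctrl 1 and 2. In RNAi-Ctrl 3 they were higher than in RNAi-GLAD 3, also like fit and Lsd-1. Lsp2 was at 63.3, 112 and 461 FPKM in the controls and 164, 281 and 231 FPKM with GLAD (1.34 ± 0.39 over 4 libraries, limma, adjusted p = 0.141). The list was split: of 9 fat body markers tested, 3 had a positive and 6 a negative difference over 4 libraries. Among the negative ones were apolpp (-0.26 ± 0.16), Desat1 (-0.48 ± 0.17) and to (-0.01 ± 0.43). The others were the yolk protein genes Yp1, Yp2 and Yp3. These were far higher in RNAi-Ctrl 1 (296, 98.6 and 343 FPKM) than in any other library. The part of these markers in the fit and Lsd-1 results was not tested. The single marker genes given here and above were named after their values were seen. The lower one was sun, whose product stunted is released by the fat body and reaches the insulin-producing cells. It was at 233, 229.7 and 187 FPKM in the controls and 182, 183 and 231 FPKM with GLAD, high and low in the same libraries as Ilp2 (-0.34 ± 0.04 over 4 libraries and -0.13 ± 0.13 over 6; limma, adjusted p = 0.0350 and 0.999).

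Further members of that list, named after their values were seen, missed the threshold. CCHa2, a fat body and gut hormone that acts on the insulin-producing cells, was at 157, 180.2 and 108 FPKM in the controls and at 73.9, 98.9 and 192 FPKM with GLAD (-0.97 ± 0.16 over 4 libraries and -0.37 ± 0.38 over 6; limma, adjusted p = 0.0573 and 0.999). RNAi-GLAD 3 was the highest library and RNAi-Ctrl 3 stood just above RNAi-GLAD 1 and 2. Gbp2, another fat body peptide, had -0.46 ± 0.08 and Crz, the neuropeptide corazonin, 0.55 ± 0.09 over 4 libraries (limma, adjusted p = 0.0636 and 0.0534). Over 6 libraries they had -0.14 ± 0.22 and 0.11 ± 0.27. Neither did the receptors CCHa2-R (0.09 ± 0.17) and AdipoR (-0.29 ± 0.07) pass (limma, adjusted p = 0.795 and 0.107 over 4 libraries), and over 6 libraries they had 0.16 ± 0.12 and -0.08 ± 0.14. Over all 4 lists, 3 of 64 tested genes were called, beside 5.45% of all genes.

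**Figure D4:**
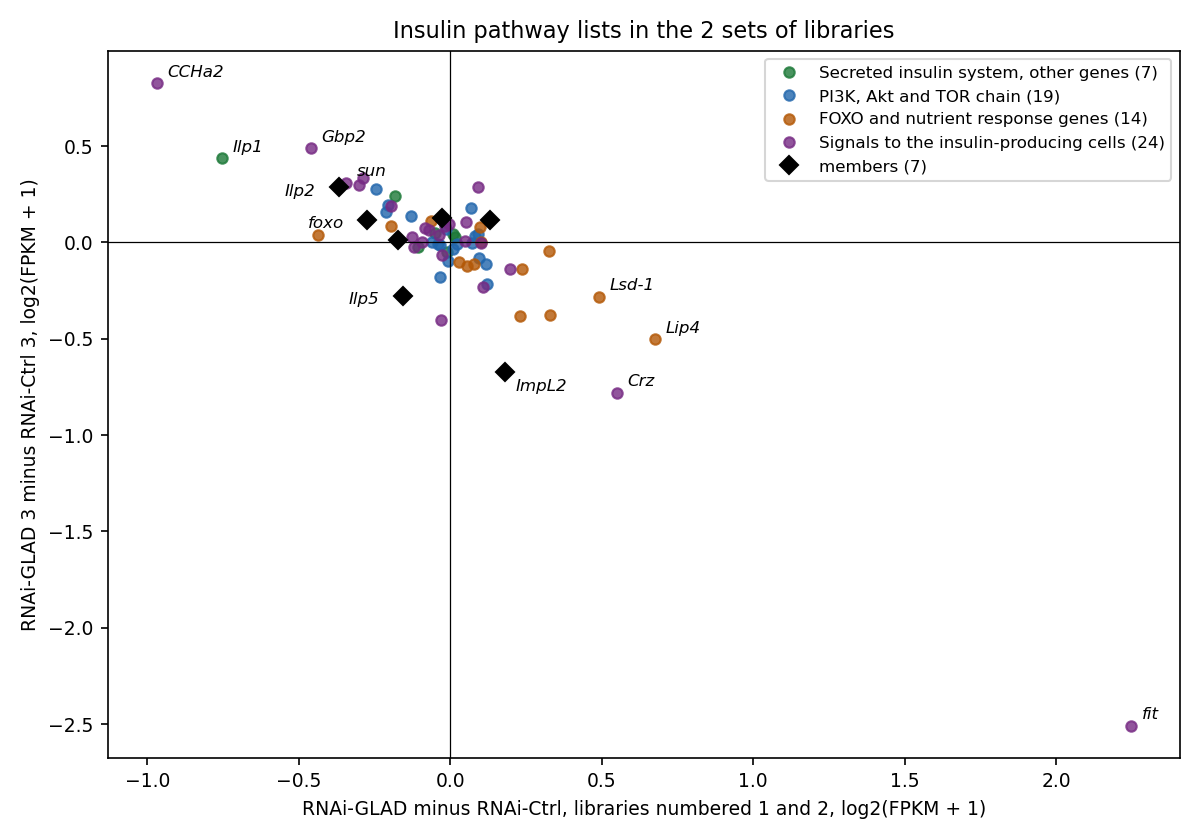
Each point is a gene of the 4 pathway lists (64 tested) or 1 of the 7 members, with its difference in the libraries numbered 1 and 2 on the horizontal axis and that between the libraries numbered 3 on the vertical axis, both RNAi-GLAD minus RNAi-Ctrl in log2(FPKM + 1). The farthest points lie in the upper left and lower right, with fit at 2.25 and -2.51, while Ilp5 lies in the lower left.

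For each peptide the genes with the most similar profile over the 6 libraries were found. By Pearson correlation of log2(FPKM + 1), given as a description over 6 points that share the labels and totals above, the genes most like Ilp2 were CG30419, pyd and FBgn0085816 (r = 0.997, 0.997 and 0.996), and 524 of 9630 genes exceeded 0.9 with it. For Ilp3 they were Qsox2, CG1544 and BRWD3 (0.990, 0.984 and 0.983; 67 genes above 0.9), for Ilp5 osi, Vlet and Fcp3C (0.964, 0.961 and 0.951; 11 genes), and for Ilp6 mute, lncRNA:CR43301 and CG10383 (0.996, 0.993 and 0.986; 26 genes). Ilp2 correlated with foxo at 0.733, with Ilp3 at 0.392 and with Ilp5 at 0.033.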

How the data were processed

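RNA from fly heads was sequenced as paired 150 bp reads, per the labels' protocols. The authors deposited 1 table of FPKM values; the submitters' processing notes name TopHat and the builds BDGP6 and dm6, while the counting tool and strand setting are not given. Of 15682 FlyBase identifiers, 15001 matched a symbol in the Ensembl release 115 names, 681 did not, and 204 rows lie outside the reference. Coordinates and exon lengths are of that annotation, and Tor and Acp70A were matched as mTor and SP. Fragment totals were those at which low FPKM values became whole reads: 47.7% to 48.4% of values up to 200 reads fell within 0.02 of a whole number. Where all 6 values of a gene were whole, reads are given. They carry counting error only.

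Values were tested as log2(FPKM + 1) with limma 3.58.1 in R 4.3.3, on genes whose mean reached 1 FPKM, with a mean-variance trend, Benjamini-Hochberg adjustment over all genes and a two-sided threshold of 0.05. This scale understates changes of low genes. All 7 members found passed the filter. Fits were tested on simulated data. The members, the lists, the 4-library comparison and the naming rule (all members, called genes of each pathway list or else the 2 with the smallest p, and the 3 genes most like each peptide) were chosen with earlier results of these data known. The library numbers were treated as not pairing samples. Alternatives covered pseudocount, filter, scaling (TMM, median of ratios, quantile), trend, threshold, a replicate block and libraries left out. Figures were drawn with matplotlib 3.10.9.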

Additional observations from a re-analysis of the deposited data

How the results depend on the processing

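Over 6 libraries the counts of called genes, members and pathway list genes were 0, 0 and 0 under every alternative except leaving out both libraries numbered 3 (527, 1 and 3), and stayed at 0 without each library in turn. In the 4 libraries the 527 calls (396 higher, 131 lower; 328 and 176 of 504 after quantile normalization) became 254 with no filter on low values, 284 with TMM scaling, 165 without the trend, 17 at the threshold of 0.01, and 1 to 329 without each library. The member call, Ilp2, was lost in each of these cases: 0 members with no filter (adjusted p = 0.0606), with TMM (0.0518), without the trend (0.0797), at 0.01, and 0 without each library; a filter at 5 FPKM gave 2, Ilp2 and foxo. The 3 pathway calls became 6 with that filter, 1 without the trend, 0 at 0.01 and 0 to 3 without each library. The cause was not tested.

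Ilp2 had a negative difference in every fit run over all 6 or the 4 libraries, from -0.40 to -0.33 without each of the 4 libraries and -0.26 to -0.080 without each of the 6. It was weakest without both libraries numbered 1 (-0.045 ± 0.18) and without both numbered 2 (-0.036 ± 0.18). Signs that turned belonged to values that did not pass: over 6 libraries ImpL2 (0.18) and chico (-0.027) without both libraries numbered 3, and, without each library in turn, Ilp3 (-0.24 to 0.027), ImpL2 (-0.26 to 0.080) and chico (-0.014 to 0.074); over 4 libraries Ilp6 (-0.054 to 0.32), ImpL2 (-0.024 to 0.39) and chico (-0.090 to 0.036). Leaving a group with 1 library assumes that it varies like the other group.

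Deviations from the group means correlated at -0.354, -0.404 and -0.460 between libraries of the same number. Those means include the libraries numbered 3, which had the opposite sign for most genes, and this can push the correlations below 0. The check thus cannot decide whether numbers mark pairs, and they were not taken as pairs. With the replicate block, 0 genes were called over 6 libraries and 512 over 4, with 1 member, Ilp2 (limma, adjusted p = 0.0411), and 4 pathway genes. Ilp5 had an unadjusted p of 0.0350 over 6 libraries (limma, adjusted p = 0.999). Over 4 libraries the block gave Ilp3, Ilp5 and Ilp6 an SE of 0.07, 0.04 and 0.04, against 0.13, 0.12 and 0.18 without it (limma with the block, adjusted p = 0.214, 0.133 and 0.159). Depth limits Ilp4, Ilp7, Ilp8 and Akh, and InR was not analysed here.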
